A study of Mus musculus with 4 samples.

Results

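Ifitm1, Ifitm2, Ifitm3 and Ifitm6 were followed by symbol in single-cell RNA sequencing libraries of sorted mouse cells, 4 genes of the 27998 in the deposited count files. The genes were chosen because earlier results of these data showed their levels in stem-like, dendritic, granulocyte precursor and monocyte cells by genotype label, so those levels and ratios are given as a description. The sort took lineage-negative cells with CD31, VE-cadherin and endomucin on their surface and divided them by Sca-1 into a Sca-1-positive gate, labelled type H vessel, and a Sca-1-negative gate, labelled sinusoidal. In each gate 1 library came from mice given as ID1 -/- ID3-/- and 1 from mice given as ID1 +/+ ID3+/-, which the sample titles call WT and which are called control here. The design text gives a CDH5-CreER transgene in both genotypes, a Cre active in cells that use the endothelial Cdh5 promoter. Tamoxifen was injected on 5 consecutive days. The sources used here give neither ages nor the number of mice per library. With 1 library per group, no difference between labels has a replicate check, and every interval below covers counting error only.

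The 3567 cells kept numbered 351 in the sinusoidal control library, 553 in the sinusoidal library labelled knockout, 806 in the type H control library and 1857 in the type H library labelled knockout. Median depth was 5597 to 6420 unique molecular identifiers (UMIs, one count per captured RNA molecule) per cell in 3 libraries and 15428 in the sinusoidal library labelled knockout. The cells were blood cells by their transcripts: Cdh5 gave 45 UMIs in 28 cells and Stab2 4 UMIs in 3 cells, against 2715 UMIs of the leukocyte gene Ptprc in 1682 cells. The check of the targeted genes went against the labels, since Id3 stood at 33.0 CPM (UMIs of the gene scaled to a common total per library or class) in the control library of type H and 84.9 CPM in the type H library labelled knockout, and at 54.7 and 84.8 CPM in the sinusoidal pair. Id1 stood at 4.08 and 2.99 CPM in the type H pair and at 26.1 and 26.3 CPM in the sinusoidal pair. A 3′ tag outside a deleted part checks nothing, and the Cre is given for endothelial cells, so libraries are named by their label only. Xist-positive cells and cells with Y-linked transcripts were present in all 4 libraries, and 4 barcodes occurred in more than 1 library, in 8 cells.

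IFITM proteins are small membrane proteins that sit in the plasma membrane and in endosomes and hinder the fusion of enveloped viruses with the cell. Ifitm3 acts mainly in endosomes, Ifitm1 mainly at the cell surface, and Ifitm2 is a close relative of Ifitm3. Interferons induce the genes in many cell types through interferon-stimulated response elements (ISREs), while stem cells are known to carry several of them at a high level without added interferon. Ifitm6 is a less studied mouse family member known from myeloid cells.

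All 4 genes lie within 63088 bases of chromosome 7 in GRCm38 with the GENCODE M21 annotation: Ifitm2 at chr7:140954837-140955987 (− strand), Ifitm1 at chr7:140967221-140969825 (+ strand), Ifitm3 at chr7:141009586-141010770 (− strand) and Ifitm6 at chr7:141015699-141017924 (− strand). All are protein-coding, and Ifitm2 overlaps the readthrough gene Gm45717 on its own strand. Because the libraries read 57 bases near the 3′ end, every 57-base stretch of the last 400 transcript bases was compared with all other annotated genes: 0 of 344 stretches were shared for Ifitm1 and for Ifitm6, 30 of 344 (8.72%) for Ifitm3 and 75 of 344 (21.8%) for Ifitm2. Part of the Ifitm2 and Ifitm3 signal could therefore be split between copies, and levels are compared between classes and libraries rather than between genes.

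The upstream sequences are shown because the results below set the Ifitm genes beside other interferon response genes, many of which are known to carry ISREs. They are the bases of the RefSeq promoter windows (GRCm38.p6, 250 bases before to 50 after the start of each gene, matched for 4 of 4 genes) that lie outside annotated exons, 5′ to 3′ on the gene's strand, with the ISRE core (GAAA, any 2 bases, GAAA) in capitals.
Ifitm1 (chr7:140967826-140968027, + strand): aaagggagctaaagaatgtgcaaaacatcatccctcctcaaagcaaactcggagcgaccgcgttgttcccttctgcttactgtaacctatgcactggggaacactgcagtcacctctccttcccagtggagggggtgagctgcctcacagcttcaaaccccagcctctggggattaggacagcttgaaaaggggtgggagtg
Ifitm2 (chr7:140955988-140956211, − strand): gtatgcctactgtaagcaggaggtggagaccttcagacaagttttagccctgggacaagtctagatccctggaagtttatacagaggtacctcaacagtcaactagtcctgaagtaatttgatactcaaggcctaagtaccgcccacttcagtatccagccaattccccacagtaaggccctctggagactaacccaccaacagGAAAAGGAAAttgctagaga
Ifitm3 (chr7:141010771-141010994, − strand): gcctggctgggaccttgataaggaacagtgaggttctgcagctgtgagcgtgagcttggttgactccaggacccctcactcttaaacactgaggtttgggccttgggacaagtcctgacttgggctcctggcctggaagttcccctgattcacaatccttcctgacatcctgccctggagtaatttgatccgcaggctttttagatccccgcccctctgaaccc
Ifitm6 (chr7:141016909-141017142, − strand): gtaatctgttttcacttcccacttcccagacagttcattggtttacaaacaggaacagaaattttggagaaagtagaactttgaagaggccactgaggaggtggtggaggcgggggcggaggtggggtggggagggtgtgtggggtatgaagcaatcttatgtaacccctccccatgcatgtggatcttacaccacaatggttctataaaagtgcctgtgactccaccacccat
The ISRE core, searched on both strands (reverse TTTC, any 2 bases, TTTC) in the whole 300-base window, matched 1 time in Ifitm2, 46 to 37 bases before the start, and 2 times in Ifitm3, at bases 3 to 12 and 20 to 29 after the start. The sites are shown as stretches of 30 bases; the Ifitm3 stretch lies wholly inside an annotated exon and 9 bases of the Ifitm2 stretch do.
Ifitm2 site (chr7:140955979-140956008, − strand): gGAAAAGGAAAttgctagagaaagggcggg
Ifitm3 site (chr7:141010714-141010743, − strand): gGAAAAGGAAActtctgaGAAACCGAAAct
The same 10 letters GAAAAGGAAA occur in both genes, inside a shared run of 13 bases (caggaaaaggaaa), while the other pairs of windows share runs of 8 or 9 bases. No ISRE core was found in the windows of Ifitm1 and Ifitm6. Their RefSeq starts, at bases 140968076 and 141016892, lie inside the annotated genes given above. The bases before the outermost annotated 5′ ends of these genes were therefore not searched. Of the 27025 RefSeq windows of this length, 3.49% held the core and 0.252% held it 2 or more times, and 10 of 17 interferon response genes from the list used below held it. Another motif, GAS (TTCNNNGAA, N for any base), was searched in the same windows and is not marked above. It matched in Ifitm3, at bases 14 to 22 after the start, and in Ifitm6, 10 to 2 bases before the start. GAS was held by 8.47% of the 27025 windows and by 4 of the 17 response genes. A match is a description of letters, not a binding site.

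The genes divided the blood cells differently. Of 30041 Ifitm1 UMIs, 87.3% lay in stem-like cells, and of 2468 Ifitm6 UMIs, 55.4% lay in monocyte-like and 43.1% in granulocyte precursor-like cells. Ifitm3 (31253 UMIs) had 57.1% in stem-like and 28.7% in monocyte-like cells, and Ifitm2 (18177 UMIs) had 45.9%, 23.1% and 19.7% in stem-like, monocyte-like and granulocyte precursor-like cells. Stem-like cells made up 73.8% and 78.5% of the type H libraries, and the sinusoidal libraries held 49.6% and 39.6% monocyte-like and 25.6% and 45.9% granulocyte precursor-like cells, control first. Cell classes were rebuilt from fixed marker genes with the Ifitm genes kept out of the clustering, and "dendritic-like" here is the plasmacytoid cluster led by Siglech, Klk1 and Cox6a2. Levels are given for classes with at least 20 cells in a library, which leaves out the 14 and 4 dendritic-like cells of the sinusoidal gate.

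**Figure D1:**
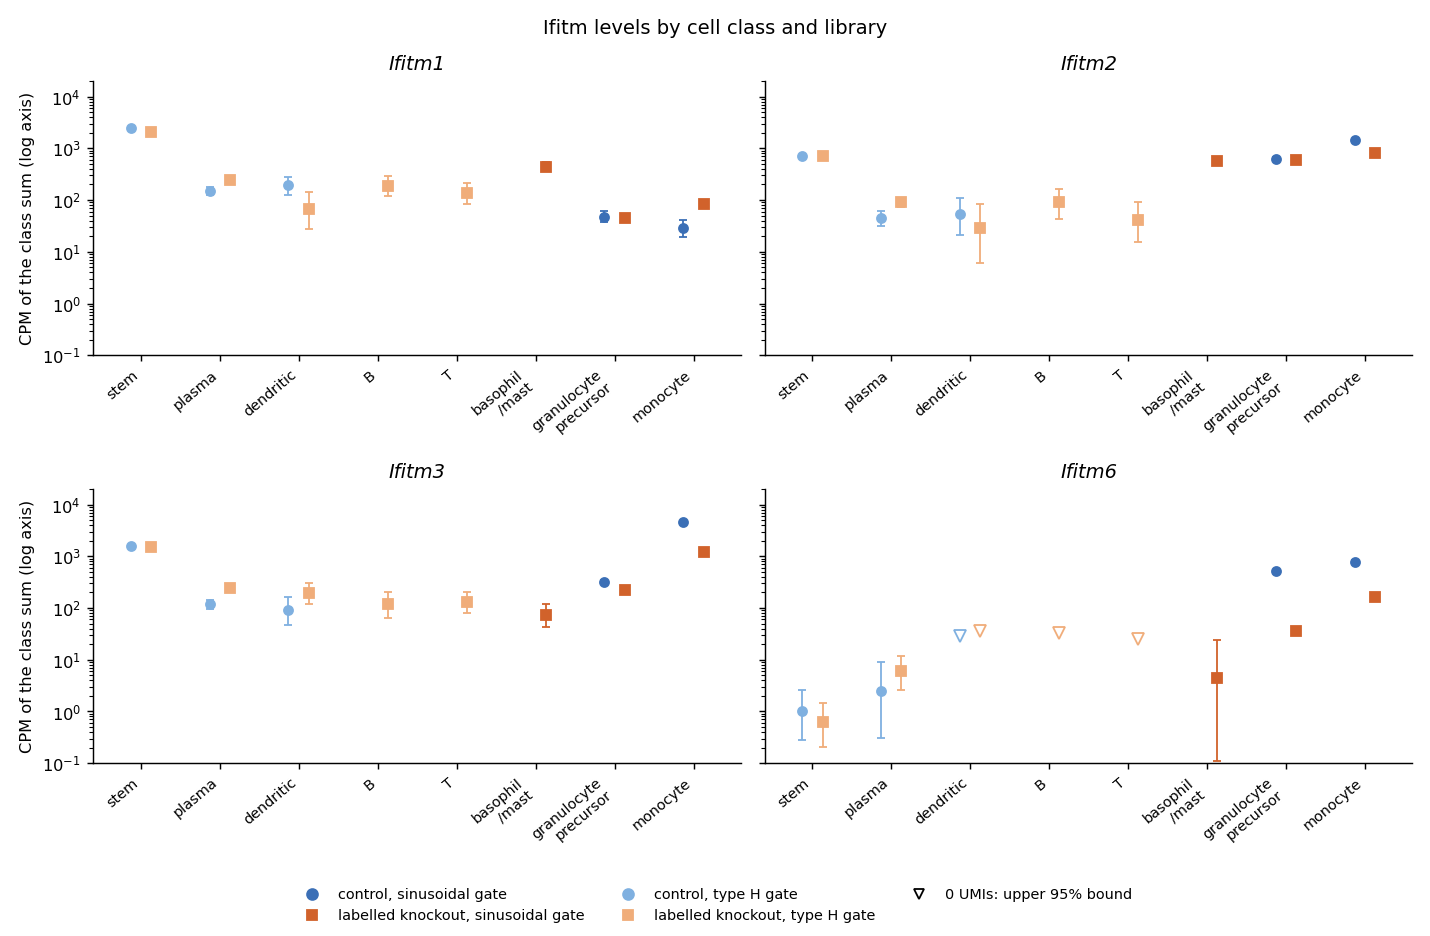
CPM of each Ifitm gene in the summed UMIs of each cell class (x axis) and library, on a log axis, with exact Poisson 95% intervals. Named classes are shown where a library held at least 20 cells, and open triangles mark the upper bound of a sum with 0 UMIs. Among the sums drawn, Ifitm1 is highest in stem-like cells (2482 and 2102 CPM), Ifitm3 in the sinusoidal control's monocyte-like cells (4598 CPM), and Ifitm6 lies near 1 CPM in stem-like cells.

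Among class sums of at least 20 cells in a library, Ifitm1 stood highest in stem-like cells, at 2482 CPM (95% interval 2433 to 2532) in the type H control and 2102 CPM (2070 to 2135) in the type H library labelled knockout. The unnamed cycling cluster led by Pf4 followed at 1139 and 946 CPM in the same libraries. The other sums of that size lay lower, from 444 CPM (362 to 539) in basophil and mast cell-like cells of the sinusoidal library labelled knockout down to 29.0 CPM (19.6 to 41.4) in monocyte-like cells of the sinusoidal control. The smaller basophil and mast cell-like sums of the control libraries stood at 2772 CPM (2447 to 3128) in 17 sinusoidal cells and 2274 CPM (1824 to 2802) in 6 type H cells. In the order of levels, plasma cell-like (249 CPM) and B cell-like cells (190 CPM) of the type H library labelled knockout and dendritic-like cells of the type H control (192 CPM) were not separated by their intervals. After thinning each cell to 2000 UMIs, 96.6% of control and 96.0% of labelled knockout stem-like cells had an Ifitm1 UMI, against 100% and 99.0% before thinning.

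Ifitm3 reached 4598 CPM (4468 to 4730) in monocyte-like cells of the sinusoidal control, followed by stem-like cells at 1587 CPM (1548 to 1627) and 1479 CPM (1452 to 1506), and by monocyte-like cells of the sinusoidal library labelled knockout at 1216 CPM (1178 to 1255). Granulocyte precursor-like cells held 318 CPM (290 to 348) in the control and 227 CPM (213 to 242) in the library labelled knockout. Plasma cell-like, dendritic-like, T cell-like and basophil and mast cell-like cells lay between 74.1 and 246 CPM. The intervals of stem-like and granulocyte precursor-like cells lay far apart, while those of T, B and basophil and mast cell-like cells overlapped.

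Ifitm2 was the most evenly spread. It stood at 1430 CPM (1358 to 1505) and 830 CPM (799 to 863) in monocyte-like cells, control first, at 726 CPM (699 to 753) and 697 CPM (678 to 715) in stem-like cells, and at 625 CPM (585 to 667) and 608 CPM (585 to 632) in granulocyte precursor-like cells. Basophil and mast cell-like cells of the sinusoidal library labelled knockout, at 575 CPM (481 to 682), were not separated from the granulocyte precursors. Lymphoid and dendritic-like cells were lower, between 29.4 and 90.7 CPM.

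Ifitm6 was found mainly in monocyte-like and granulocyte precursor-like cells. It stood at 776 CPM (723 to 831) and 165 CPM (151 to 180) in monocyte-like cells and at 514 CPM (478 to 552) and 36.3 CPM (30.8 to 42.5) in granulocyte precursor-like cells, control first. Stem-like cells held 4 UMIs in 595 control cells and 5 UMIs in 1457 labelled knockout cells, or 1.03 and 0.636 CPM. B cell-like and T cell-like cells of the type H library labelled knockout and dendritic-like cells of both type H libraries held 0 UMIs, which with their few cells leaves upper bounds of 25.7 to 36.1 CPM. Over all libraries, B cell-like cells held 5 UMIs and NK cell-like cells 2. Basophil and mast cell-like cells of the sinusoidal library labelled knockout stood at 4.36 CPM, on 1 UMI. An Ifitm6 UMI was found in 93.1% of the control's monocyte-like cells (median depth 5429 UMIs) and in 0.672% of the type H control's stem-like cells (median 6312 UMIs). It was found in 422 cells in all, against 2683 for Ifitm1, 3062 for Ifitm2 and 3141 for Ifitm3.

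Cells of the stem-like class carried Ifitm1, Ifitm2 and Ifitm3 together. In cells thinned to 2000 UMIs, 97.4% of control and 96.5% of labelled knockout stem-like cells had 2 or more of the 4 genes, and 68.3% and 66.4% had 3 or more. Monocyte-like cells of the sinusoidal control were similar, with 97.7% and 68.4%, through Ifitm2, Ifitm3 and Ifitm6. Those of the sinusoidal library labelled knockout were lower, with 73.5% and 33.3%. Plasma cell-like cells had 2 or more genes in 8.41% of control and 18.0% of labelled knockout cells.

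The other family genes were low. Ifitm7 had 417 UMIs, at 26.0 CPM (21.2 to 31.6) and 23.5 CPM (20.3 to 27.2) in stem-like cells, control first, and at 8.70 and 10.9 CPM in monocyte-like cells. Ifitm10 had 28 UMIs in all, 8 of them in the 20 NK cell-like cells and 10 in the 42 T cell-like cells of the type H library labelled knockout (69.5 CPM, 33.3 to 128). Ifitm5, a gene known from bone-forming cells, had 7 UMIs.

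In stem-like cells the label ratios of the 3 measured members lay near 1, and among them that of Ifitm1 was farthest from it. The Ifitm1 sums of 9643 UMIs (control) and 16518 UMIs (labelled knockout) gave a ratio of 0.847 (0.826 to 0.869). Ifitm3 stood at 1587 and 1479 CPM, a ratio of 0.932 (0.904 to 0.961), and Ifitm2 at 726 and 697 CPM, a ratio of 0.960 (0.917 to 1.0). With a call defined as at least 1.5-fold on at least 20 UMIs, 0 of 3 measured members were called, where 5.07% of 11435 genes were called higher and 3.13% lower. The direction for Ifitm1 was the same in each of the 5 stem-like clusters, with ratios of 0.714 to 0.899 and every interval below 1. The ratio of 0.714 belonged to the shallow cluster led by Slc39a1 and Notch2, which held 55 control and 363 labelled knockout cells at medians of 5086 and 2852 UMIs. For Ifitm3 the interval lay below 1 in 3 of 5 clusters and for Ifitm2 in 0 of 5.

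**Figure D2:**
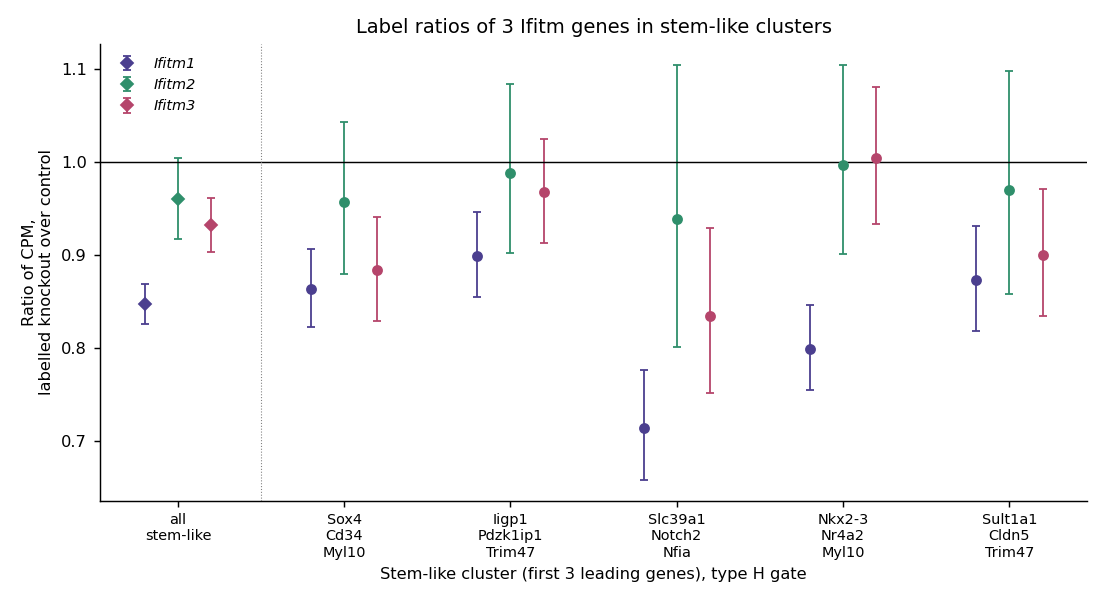
Ratio of CPM, labelled knockout over control, of Ifitm1, Ifitm2 and Ifitm3 in the type H gate (y axis, linear) for all stem-like cells and for each of the 5 stem-like clusters, named by their 3 leading genes, with exact 95% intervals for counting error. Ifitm1 lies between 0.714 and 0.899 in the clusters, and the Ifitm2 intervals all cross 1.

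The difference between labels depended on which cells were compared. Among stem-like cells that had Xist but no Y-linked transcript, Ifitm1 stood at 1736 CPM (1645 to 1830) in 118 control cells and 1902 CPM (1785 to 2025) in 92 labelled knockout cells. Among those that had a Y-linked transcript but not Xist it stood at 2617 CPM (2549 to 2686) in 319 control and 2130 CPM (2088 to 2173) in 781 labelled knockout cells. The label difference thus had opposite signs in the 2 kinds of cells, and the gap between them within the control library was wider than the gap between the labels. With 1 library per label, the label and the animals behind it cannot be told apart. Ifitm3 was lower in the library labelled knockout in both kinds, at 1470 and 1211 CPM in Xist cells and at 1613 and 1489 CPM in cells with Y-linked transcripts.

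Ifitm levels also varied among stem-like clusters within each library. Ifitm3 in the control was lowest in the cluster led by Nkx2-3 and Nr4a2 (1350 CPM) and in that led by Sox4, Cd34 and Flt3 (1420 CPM), and highest in those led by Iigp1 and Pdzk1ip1 (1829 CPM) and by Sult1a1, Cldn5 and Meg3 (1889 CPM). Iigp1 is an interferon-inducible GTPase. The library labelled knockout had the same lower and upper pairs apart from the shallow cluster, at 1356 and 1254 CPM and at 1769 and 1699 CPM. Ifitm2 spanned only 671 to 757 CPM over the 5 control clusters.

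Other genes of the pathway had ratios near those of all genes in stem-like cells. Of 24 measured type I interferon response genes 0 were called higher and 1 lower, with a median log2 ratio of -0.05 beside -0.04 for all genes. The gene called lower was Ifit3, an interferon-induced antiviral gene, on 31 and 33 UMIs (ratio 0.526, 0.312 to 0.889). Isg15, a ubiquitin-like modifier, stood at 33.7 and 38.7 CPM, and Irf7, a transcription factor of the response, at 49.2 and 46.2 CPM. Of 13 interferon receptor and signalling genes 0 were called in either direction, and likewise 0 of 6 genes of IFITM modification and partners, among them Zdhhc20, a palmitoyltransferase acting on IFITM3 (55.3 and 55.4 CPM), and the tetraspanin Cd81 (430 and 417 CPM). Of 9 late neutrophil genes 4 were measured in stem-like cells and 4 were called higher, beside 5.07% of all genes. The levels were very low, since the 9 genes together summed to 10.8 CPM (control) and 24.6 CPM (labelled knockout). For granulocyte precursors the same sum was 23290 CPM in the sinusoidal control and 12014 CPM in the sinusoidal library labelled knockout.

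In the sinusoidal gate, granulocyte precursor-like cells had the ratio farthest from 1 among the measured members of the 5 classes compared. Ifitm6 stood at 514 CPM in 90 control cells and 36.3 CPM in 254 labelled knockout cells, a ratio of 0.0706 (0.0591 to 0.0840). Ifitm3 stood at 318 and 227 CPM, a ratio of 0.715 (0.639 to 0.800). Ifitm2 (ratio 0.974, 0.903 to 1.05) and Ifitm1 (47.8 and 44.5 CPM, ratio 0.930, 0.704 to 1.24) had intervals that include 1. For Ifitm1 this sum joined opposite differences. In cells that had Xist but no Y-linked transcript it stood at 14.5 CPM (4.72 to 33.9, 22 cells) in the control and 122 CPM (93.1 to 156, 33 cells) in the library labelled knockout. In cells with Y-linked transcripts and no Xist it stood at 68.4 CPM (52.4 to 87.7, 51 cells) and 35.5 CPM (28.9 to 43.2, 160 cells). Over the whole class, 1 of 4 measured members was called lower and 0 higher, where 9.2% of 8928 genes were called lower and 7.9% higher.

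The difference lay in the later of the 2 granulocyte clusters. The early cluster, led by Mpo and Elane, which encode enzymes of primary granules, held 64 control and 202 labelled knockout cells. Ifitm6 was low there in both libraries, 19.6 CPM (12.4 to 29.4) and 12.1 CPM (8.76 to 16.3), a ratio of 0.619 (0.365 to 1.08) that counts as 1 call of 4 members, beside 9.58% of genes called lower and 7.42% higher. Ifitm3 had a ratio of 1.01 (0.886 to 1.15) and Ifitm2 of 1.05 (0.964 to 1.14) in this cluster. The later cluster, led by Ngp, Camp and Ltf, which encode proteins of later granules, held 26 control and 52 labelled knockout cells. There Ifitm6 stood at 2524 CPM (2344 to 2714) and 152 CPM (125 to 183), Ifitm3 at 574 CPM (490 to 668) and 82.1 CPM (62.8 to 105), and Ifitm2 at 550 CPM (468 to 642) and 299 CPM (261 to 341). The ratios were 0.0602 (0.0490 to 0.0735), 0.143 (0.105 to 0.193) and 0.543 (0.441 to 0.670), so that 3 of 3 measured members were called lower, beside 10.6% of 4183 genes called lower and 29.2% higher.

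Few cells carried this signal. An Ifitm6 UMI was found in 22 of 26 control cells and in 10 of 52 labelled knockout cells of the later cluster, and 5 cells held 91.2% of its 113 UMIs in the library labelled knockout, against 52.2% of 730 in the control. The highest cells reached 93 and 44 UMIs. In cells with Xist Ifitm6 stood at 2299 CPM (7 control cells) and 10.6 CPM (7 labelled knockout cells, 1 UMI), and in cells with Y-linked transcripts at 2136 CPM (14 cells) and 80.8 CPM (25 cells).

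The stage of the cells moved with the label. Late neutrophil genes were called lower in the library labelled knockout in 9 of 9 cases over the class (median log2 ratio -1.62, beside 0.02 for all genes) and in 8 of 9 within the later cluster (median -1.49, beside 0.27), where Ltf, the gene of lactoferrin, stood at 6240 and 916 CPM and Ly6g, a neutrophil surface marker, at 332 and 35.0 CPM. Early granule genes were called higher there in 5 of 5 cases, Elane at 7616 and 20890 CPM. When the cells of the later cluster were grouped by their Ltf UMIs, Ifitm6 went from 118 CPM (6 control cells without Ltf) to 4414 CPM (17 control cells with 10 or more Ltf UMIs), and from 10.2 CPM (41 cells) to 1374 CPM (5 cells) in the library labelled knockout. In the group with 10 or more Ltf UMIs, Ltf itself stood at 11222 and 9505 CPM and Ifitm3 at 904 and 573 CPM. Elane still differed there, at 387 and 2133 CPM. The Ifitm6 intervals of the 2 libraries were separate without Ltf UMIs (61.0 to 206 and 3.73 to 22.1 CPM) and with 10 or more (4095 to 4752 and 1113 to 1678 CPM). With 1 to 9 Ltf UMIs they overlapped, at 367 CPM (176 to 674, 3 cells) and 132 CPM (66.0 to 237, 6 cells). The part of stage in the Ifitm6 and Ifitm3 ratios was not tested. Over the class, 3 of 17 measured type I interferon response genes were called higher and 1 lower (median log2 ratio 0.19), and Zmpste24, a protease known as a partner of IFITM proteins, stood at 56.0 and 29.8 CPM.

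**Figure D3:**
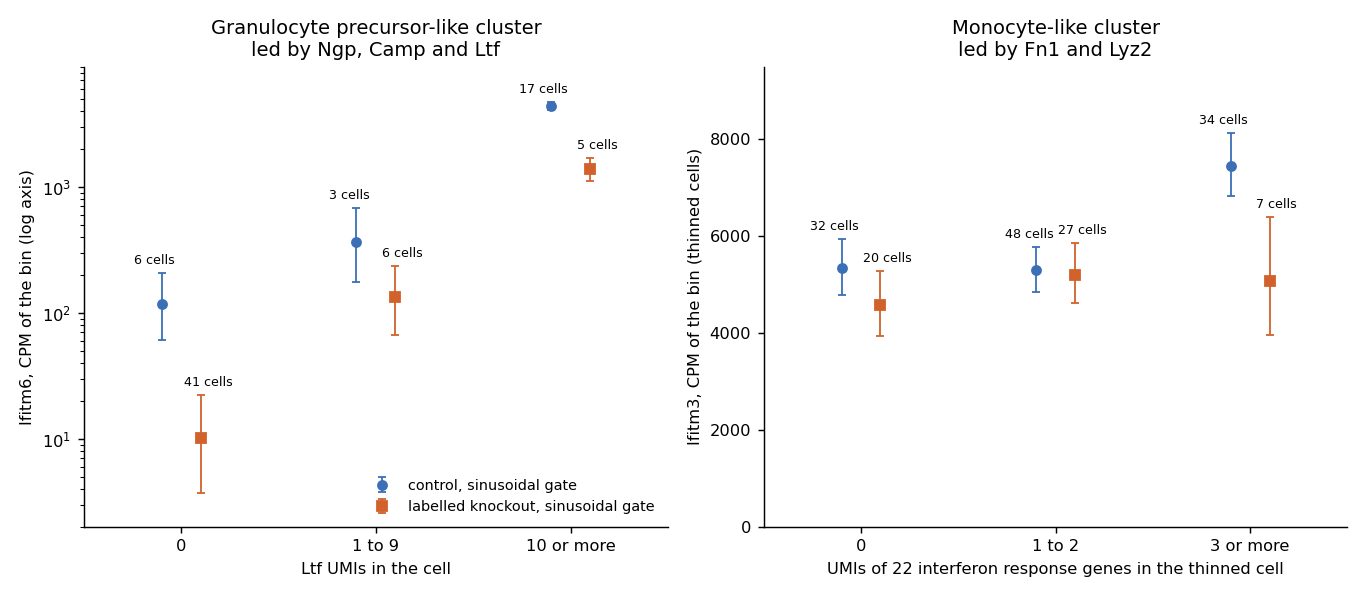
Left, Ifitm6 CPM (log axis) in cells of the granulocyte precursor-like cluster led by Ngp, Camp and Ltf, grouped by Ltf UMIs per cell; right, Ifitm3 CPM (linear axis) in thinned cells of the monocyte-like cluster led by Fn1 and Lyz2, grouped by UMIs of 22 interferon response genes. Bars are exact Poisson 95% intervals and the number of cells stands above each point. Ifitm6 is highest in the cells with most Ltf in both libraries, at 4414 and 1374 CPM, and Ifitm3 is highest, at 7456 CPM, in the 34 control cells with 3 or more response UMIs.

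In monocyte-like cells of the sinusoidal gate all 4 genes were called, and the makeup of the class differed as well. Ifitm3 stood at 4598 CPM in 174 control cells and 1216 CPM in 219 labelled knockout cells (ratio 0.264, 0.253 to 0.276), Ifitm6 at 776 and 165 CPM (0.213, 0.190 to 0.238) and Ifitm2 at 1430 and 830 CPM (0.580, 0.544 to 0.619). Ifitm1 went the other way, from 29.0 to 84.5 CPM (2.91, 1.99 to 4.40), on 30 and 264 UMIs. Hence 3 of 4 members were called lower and 1 higher, in a comparison where 22.6% of 8719 genes were called lower and 23.1% higher. Of the control cells 114 lay in the cluster led by Fn1 and Lyz2, 41 in that led by Ear2 and Fcgr4 and 19 in that led by F13a1; of the labelled knockout cells 54, 5 and 160 did. The F13a1 cluster also carried 4 raised granulocyte precursor markers beside 6 of monocytes, and over the class early granule genes were called higher in 5 of 5 cases and nonclassical monocyte genes lower in 6 of 7.

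**Figure D4:**
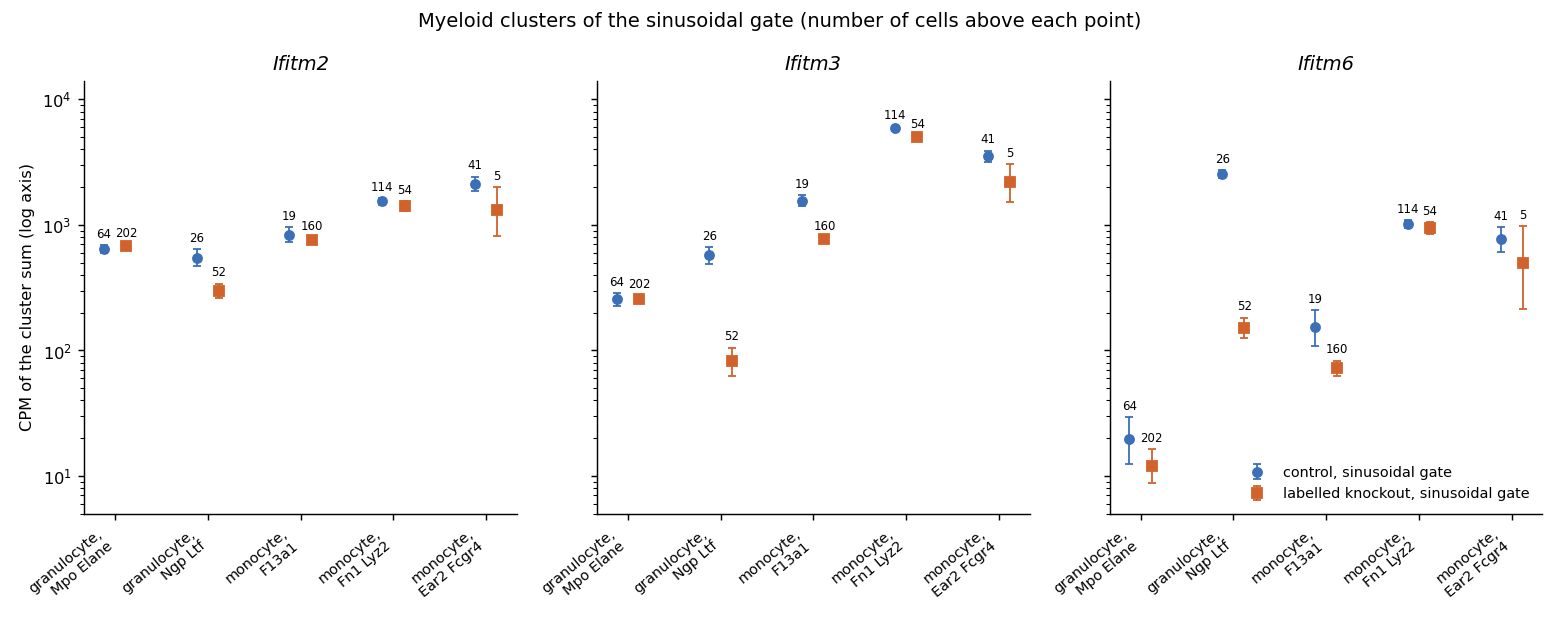
CPM (log axis) of Ifitm2, Ifitm3 and Ifitm6 in the 5 myeloid clusters of the sinusoidal gate, named by leading genes, in the control library and the library labelled knockout, with exact Poisson 95% intervals and the number of cells above each point. In the monocyte cluster led by Fn1 and Lyz2 the 2 libraries lie close together for all 3 genes, and in the granulocyte cluster led by Ngp and Ltf Ifitm6 stands at 2524 and 152 CPM.

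Within the Fn1 and Lyz2 cluster, where Ccr2 and Chil3 were also among the leading genes, the ratios lay near 1. Ifitm3 stood at 5913 CPM (5730 to 6099) and 4973 CPM (4733 to 5221), a ratio of 0.841 (0.793 to 0.891). Ifitm6 stood at 1013 and 942 CPM (0.930, 0.810 to 1.07) and Ifitm2 at 1547 and 1410 CPM (0.912, 0.815 to 1.02). Of 4 measured members 0 were called, beside 12.4% of 4762 genes called lower and 9.18% higher. The F13a1 cluster had fewer than the 20 control cells set as a minimum, and there Ifitm3 stood at 1559 CPM (19 cells) and 772 CPM (160 cells) and Ifitm6 at 153 and 72.2 CPM. In the Ear2 and Fcgr4 cluster, which carries nonclassical monocyte markers, Ifitm3 stood at 3535 CPM (41 cells) and 2187 CPM (5 cells).

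In the same Fn1 and Lyz2 cells many other interferon response genes had ratios farther from 1. Of 24 measured type I interferon response genes 20 were called lower and 1 higher in the library labelled knockout, with a median log2 ratio of -1.38 beside 0.02 for all genes. Isg15 stood at 240 and 24.6 CPM (ratio 0.103, 0.0435 to 0.207), and Rsad2, the antiviral enzyme viperin, at 54.9 and 6.16 CPM. Ifit3 had 69 UMIs in the control and 0 in the library labelled knockout, and Ifit1 47 and 0. Irf7 stood at 243 and 70.8 CPM, and Oasl2, of the oligoadenylate synthetase family, at 122 and 21.6 CPM. The gene called higher was Irf9, a transcription factor of the response (48.9 and 73.9 CPM, on 33 and 24 UMIs). Ifi27l2a (1971 and 2137 CPM) and Ly6e (1799 and 1478 CPM) were not called. At Leiden resolution 2 a small monocyte-like cluster had Ifit3, Isg15 and Ifit2 among its leading genes. It held 11 cells of the sinusoidal control and 0 of the sinusoidal library labelled knockout. The part of these few cells in the response ratios was not tested.

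**Figure D5:**
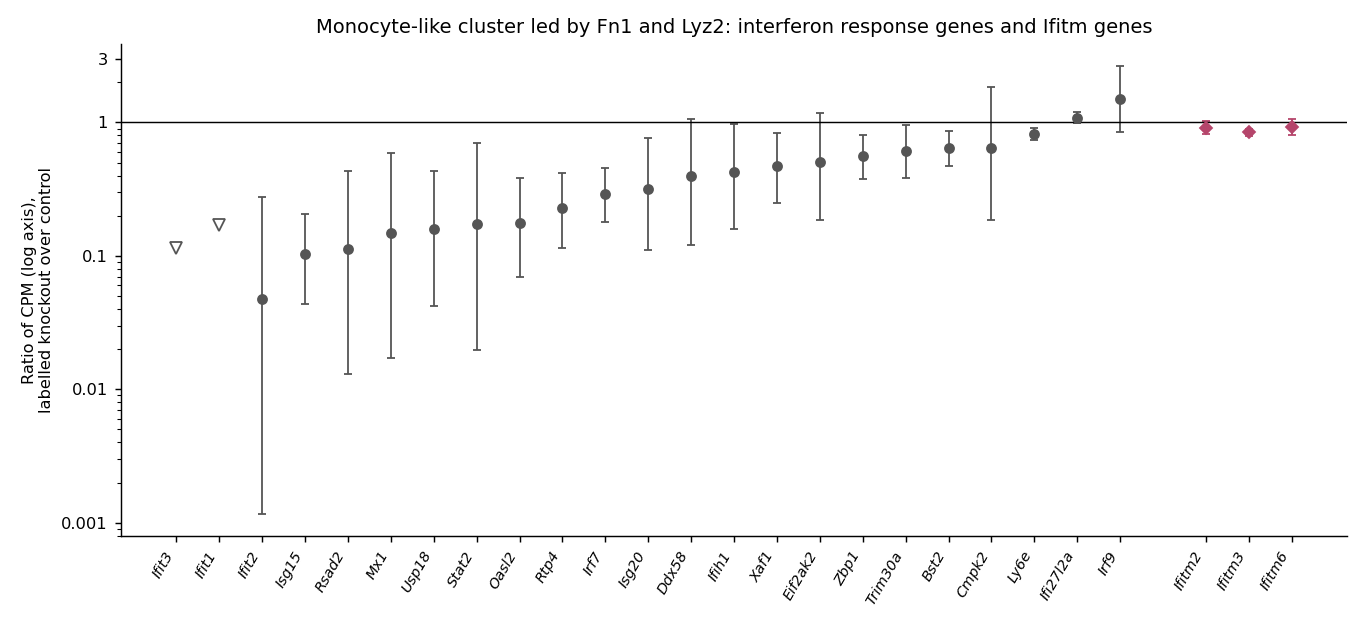
Ratio of CPM (log axis), labelled knockout over control, of 23 type I interferon response genes (grey) and of Ifitm2, Ifitm3 and Ifitm6 (red) in the monocyte-like cluster led by Fn1 and Lyz2 of the sinusoidal gate, with exact 95% intervals; open triangles mark the upper bound where the library labelled knockout had 0 UMIs. Of the 23 genes, 19 lie at least 1.5-fold below 1, and the 3 Ifitm genes lie at 0.912, 0.841 and 0.930.

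Cells of this cluster were also grouped by their own response. After thinning to 2000 UMIs, UMIs of 22 response genes (the list without Ifi27l2a, Ly6e and Bst2) were summed per cell, and 34 of 114 control cells but 7 of 54 labelled knockout cells had 3 or more. In the control Ifitm3 stood at 5344 CPM (4792 to 5941) in cells with 0 response UMIs, 5292 CPM (4841 to 5772) with 1 to 2 and 7456 CPM (6821 to 8134) with 3 or more. Ifitm2 (1672, 1521 and 1471 CPM) and Ifitm6 (906, 948 and 941 CPM) had overlapping intervals across the same groups. In the library labelled knockout Ifitm3 stood at 4575 CPM (3936 to 5288), 5204 CPM (4613 to 5849) and 5071 CPM (3961 to 6397) in the same order. The Ifitm3 intervals of the 2 libraries overlapped at 0 and at 1 to 2 response UMIs and were separate at 3 or more. The last group has no upper limit, so the 2 libraries need not be alike in response within it. Cells were grouped after values had been seen, and these groups share a library.

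The response sum also differed between Xist cells and Y-linked cells. Over the cluster the 22 genes summed to 2029 CPM (control) and 659 CPM (labelled knockout). Among the Xist cells the sum was 1368 CPM (17 cells) and 375 CPM (6 cells), and among the cells with Y-linked transcripts it was 2912 CPM (55 cells) and 624 CPM (23 cells). Ifitm3 stood at 6312 and 4234 CPM in the Xist cells and at 6156 and 4684 CPM in the cells with Y-linked transcripts. Of 10 measured receptor and signalling genes in this cluster 2 were called higher and 4 lower, beside 9.18% of 4762 genes called higher and 12.4% lower. Stat2 (35.6 and 6.16 CPM) and Irf1 (48.9 and 12.3 CPM) were lower, on few UMIs in the library labelled knockout. Irf9 was higher, and the receptor gene Ifnar2 stood at 122 and 132 CPM. Stat2 and Irf9 are also in the response list, so their calls are not additional to those given above.

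Dendritic-like cells had few Ifitm UMIs. In 25 type H control cells and 25 cells of the type H library labelled knockout Ifitm1 stood at 192 CPM (124 to 283) and 68.5 CPM (27.5 to 141), a ratio of 0.357 (0.130 to 0.849) on 25 and 7 UMIs. Ifitm3 stood at 92.1 CPM (47.6 to 161) and 196 CPM (120 to 302), a ratio of 2.13 (0.989 to 4.77) on 12 and 20 UMIs. Of 2 measured members 1 was called lower and 1 higher, beside 9.13% of 1764 genes called lower and 14.5% higher. Ifitm2 had 7 and 3 UMIs. The type I interferon response list summed to 9959 and 10791 CPM in these cells, with 7 of its 25 genes measured. Much of this sum was Bst2 (4496 and 5401 CPM), which is also among the leading genes of the cluster. Irf7 stood at 660 and 333 CPM.

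Plasma cell-like cells, which secrete antibody, had Ifitm levels well below those of the stem-like cells that fill the same libraries. Ifitm1 stood at 149 CPM (123 to 178) in 109 control cells and 249 CPM (223 to 277) in 167 labelled knockout cells, Ifitm3 at 119 and 246 CPM, and Ifitm2 at 45.0 and 90.3 CPM. The ratios were 1.68 (1.35 to 2.08), 2.07 (1.65 to 2.63) and 2.01 (1.37 to 3.0), so 3 of 3 measured members were called higher, beside 17.3% of 6803 genes called higher and 5.45% lower. The makeup of the class differed by label. At Leiden resolution 2, a cluster led by Jchain, Mzb1 and Derl3 held 85 control and 67 labelled knockout cells of the type H gate. Another, led by Chst1, Txndc5 and Mt2, held 24 and 100. The part of makeup in these ratios was not tested. In cells with Y-linked transcripts and no Xist, Ifitm3 stood at 135 CPM (97.6 to 182, 42 cells) and 304 CPM (265 to 348, 80 cells). In cells that had Xist but no Y-linked transcript the intervals overlapped, at 117 CPM (78.1 to 167, 34 cells) and 159 CPM (105 to 231, 21 cells). Genes of other cell types were also higher there in the library labelled knockout, Lyz2 at 27.5 and 123 CPM. The levels of dendritic-like, B cell-like and T cell-like cells were of the same size as those of the plasma cell-like cells. In thinned cells an Ifitm1 UMI was found in 34.6% of control and 34.7% of labelled knockout plasma cell-like cells, at full median depths of 7094 and 7484 UMIs, against 57.8% and 73.1% before thinning.

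The proportions of the genes were compared within a library. In the type H control there were 1.56 Ifitm1 UMIs (1.52 to 1.61) per Ifitm3 UMI in stem-like cells and 1.25 (0.949 to 1.66) in plasma cell-like cells. In the type H library labelled knockout there were 1.42 (1.39 to 1.46) and 1.01 (0.866 to 1.18), with intervals that do not overlap. Dendritic-like cells had 2.08 (1.01 to 4.55) and 0.350 (0.125 to 0.862). The part of free RNA in these low levels was not tested.

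Basophil and mast cell-like cells divided into 2 small clusters with different Ifitm1, a contrast chosen after its values were seen. The cluster of 22 cells led by Osm and Ccl3 had 5079 CPM of Ifitm1 (4575 to 5623), with 5963 CPM in 12 sinusoidal control cells, 3823 CPM in 6 cells of the sinusoidal library labelled knockout and 4446 CPM in 4 type H control cells. In the cluster led by Prss34 and Mcpt8, the 21 cells of the sinusoidal library labelled knockout had 183 CPM (130 to 250). All 3 libraries with cells in the first cluster thus lay above every stem-like sum, on 371 UMIs. Ifitm2 went the other way, at 329 CPM (211 to 489) in the Osm and Ccl3 cluster and 601 CPM (501 to 714) in the Prss34 cells of the sinusoidal library labelled knockout.

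The genes whose levels over the 13 sums of a class in a library were most like each member's were found among 5434 genes, as a description by Pearson's r of log2(CPM + 10), with sums that share libraries and depth. For Ifitm1 they were Adgrg1 (r = 0.96), Meis1 (0.94), Angpt1 (0.92), Wbscr27 (0.91) and Car2 (0.91), of which the first 3 are among the stem-like markers used to name cells. For Ifitm6 they were Cd177 (0.96), a neutrophil surface gene, Mcemp1 (0.95), Mtus1 (0.93), C3 (0.93) and Chil3 (0.93). Ifitm2 was most like Gsdmd (0.95), the pore-forming gasdermin D gene, Sqrdl (0.95), Pygl (0.93), Rab32 (0.92) and Tnfrsf21 (0.92). Ifitm3 was most like Gm7676 (0.94), a processed pseudogene on chromosome 8 that shares 46 of its 263 57-base stretches with Ifitm1 or Ifitm3, then Cdkn1a (0.93), Tnfaip2 (0.92), Nupr1 (0.90) and Csrp2 (0.90). Among the members r was 0.71 for Ifitm2 and Ifitm3, 0.64 for Ifitm2 and Ifitm6, 0.55 for Ifitm3 and Ifitm6, 0.12 for Ifitm1 and Ifitm3, 0.10 for Ifitm1 and Ifitm2 and -0.60 for Ifitm1 and Ifitm6.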

How the data were processed

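Droplet 3′ libraries were read with 26 and 57 cycles, per the labels' protocols. The deposited matrices hold raw UMI counts per gene and barcode, made by the authors with Cell Ranger on mm10 per the submitters' processing notes, which also name Seurat without versions. Barcodes with at least 200 genes and at most 10% mitochondrial UMIs were kept (3567 of 3641). Cells were normalised to 10000 UMIs, reduced to 2000 variable genes without Ifitm genes and 30 components, and clustered with Leiden at resolution 1 (scanpy 1.11.5, leidenalg 0.10.2). The 19 clusters were named from 17 marker lists by a rule set after the data were seen; 1 stayed unnamed, and 2 marker symbols are not among the symbols of the files. Scrublet marked 15 cells (0.421%), and these were kept. Whether it missed doublets here was not tested, so doublets may remain. UMIs were summed per class and library, giving CPM with exact Poisson 95% intervals, ratios with exact conditional intervals and shares with Clopper-Pearson intervals, all for counting error only; kept UMIs per library ranged from 3179782 to 11023619. With 1 library per group there is no test and no p-value. A gene was measured with at least 20 UMIs in both sums together and called at 1.5-fold. The 4 members were called by the plain ratio of CPM. All genes and the gene lists were called by a log2 ratio with 0.5 UMI added to each sum. The interval code was tested on simulated data. The members, the gene lists and the alternatives were chosen with earlier results of these data known. Named genes are the 4 members, Ifitm5, Ifitm7 and Ifitm10, the 5 most alike genes per member among those reaching 50 CPM, and from each list up to 4 measured genes with the largest ratios; other list genes named were chosen after their values were seen. A single gene of the response list enters the counts and sums and is not reported by name here, and is not drawn.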

Additional observations from a re-analysis of the deposited data

Results flagged for a closer look

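Label ratios of the same gene pointed in opposite directions in different groups of cells, and these differences were not tested, since each group has 1 library. In the type H gate the Ifitm1 ratio was 0.847 in stem-like cells and 0.357 in dendritic-like cells but 1.68 in plasma cell-like cells. The Ifitm3 ratio was 0.932 in stem-like cells and 2.07 in plasma cell-like cells. Within stem-like cells the Ifitm1 log2 ratio was 0.13 in cells with Xist and -0.30 in cells with Y-linked transcripts. In the sinusoidal gate, granulocyte precursor-like cells had Ifitm1 log2 ratios of 2.94 with Xist and -0.95 with Y-linked transcripts.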

How the results depend on the processing

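The values below are log2 label ratios, labelled knockout over control, unless stated, and the causes of the changes were not tested. In stem-like cells the Ifitm1 ratio of -0.24 reversed to 0.13 in cells with Xist and not Y-linked transcripts; it was -0.30 in cells with Y-linked transcripts and not Xist, -0.30 in cells thinned to 2000 UMIs, -0.28 as a mean of CPM per cell, -0.20 at Leiden resolution 2 and -0.20 with median-ratio scaling. Ifitm2 there (-0.06) was -0.19 in Xist cells, and Ifitm3 (-0.10) was -0.28 in Xist cells and -0.18 thinned. In granulocyte precursor-like cells Ifitm6 (-3.82) was -4.09 thinned, -5.08 in Xist cells, -4.60 in Y-linked cells and -1.87 in cells with an Ltf UMI. Ifitm3 there (-0.49) reversed to 0.22 in cells with an Ltf UMI, and was -0.064 without a cell filter, -0.11 with the stricter filter (500 genes, 5% mitochondrial UMIs), -0.11 at Leiden resolution 2, -0.77 as a mean per cell and -0.84 in Xist cells. In monocyte-like cells Ifitm6 (-2.23) and Ifitm3 (-1.92) were, in that order, -0.10 and -0.25 in the cluster led by Fn1 and Lyz2 alone, -0.25 and -0.41 with clusters weighted alike, -1.55 and -1.45 without a cell filter, -1.29 and -1.22 with the stricter filter, -1.32 and -1.25 at Leiden resolution 2, -1.31 and -1.24 with Ifitm genes allowed in the clustering, -1.49 and -1.38 as means per cell, -1.45 and -1.39 thinned, -1.98 and -2.18 in Xist cells and -2.71 and -2.23 in Y-linked cells. The restrictions to cells with an Ltf UMI, to the Fn1 and Lyz2 cluster and to stem-like cells without the shallow cluster were chosen after seeing the data. Other settings moved these 7 ratios by less than their counting error. Restriction by sex-linked transcripts was added for 7 more ratios after seeing the data. Ifitm1 in granulocyte precursor-like cells (-0.11) was 2.94 in Xist cells and -0.95 in Y-linked cells. In plasma cell-like cells Ifitm3 (1.05) was 0.45 in Xist cells and 1.16 in Y-linked cells, Ifitm1 (0.74) 0.69 and 1.15, and Ifitm2 (0.99) 0.55 and 0.60; of these, the intervals of the 3 Xist ratios and of the Ifitm2 Y-linked ratio include 0. Ifitm2 in monocyte-like cells (-0.79) was -0.89 in Xist cells and -0.80 in Y-linked cells.

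Genes called higher and lower numbered, with at least 50 UMIs and then with a 2-fold rule, 326 and 176, then 162 and 69 in stem-like cells (580 and 358 as reported). In granulocyte precursors they were 347 and 427, then 211 and 260 (705 and 821), 55 and 34, then 70 and 40 in dendritic-like cells (255 and 161) and 487 and 95, then 440 and 96 in plasma cell-like cells (1175 and 371). In monocyte-like cells they numbered 994 and 997 with the 2-fold rule (2013 and 1971). Of 52 levels, leaving out shared barcodes moved 0 beyond counting error, leaving out Scrublet doublets 3 and thinning 21. Restriction to Xist cells moved 28 of 40 levels and restriction to Y-linked cells 18 of 52. The mean of CPM per cell moved 16 of 52, the stricter filter 15 of 44 and clusters weighted alike 13 of 52. No paired analysis was possible because each group has 1 library and the labels give no replicate numbers.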
